A study of Mus musculus with 8 samples.

Results

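The pyruvate dehydrogenase complex genes were followed in liver RNA from mice on a high-fat diet (HFD). The group has 10 genes of the 45706 identifiers in the count table: the core subunit genes *Pdha1*, *Pdhb* and *Dlat*, the kinase genes *Pdk1*, *Pdk2*, *Pdk3* and *Pdk4*, and the phosphatase genes *Pdp1*, *Pdp2* and *Pdpr*. Each was found in the table by its Ensembl identifier, and all 10 passed the filter on low counts, as did the 2 remaining subunit genes, *Dld* and *Pdhx*, which are given beside them. The group was chosen because *Pdp2* was lower in the knockdown livers, so the *Pdp2* difference is a description: it is given no p-value, and any count of calls that holds *Pdp2* is no test of it. The other 9 genes were taken for what their proteins do.

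Livers of 8 male C57BL/6J mice (strain spelled C56B6/J in the labels) were sequenced, with 4 in the *Srsf10-kd* group (genotype label Srsf10KD) and 4 in the *Ctrl* group (genotype label WT). All mice were injected at 6 weeks of age with an adeno-associated virus (AAV) that carried GFP and a short hairpin RNA in a microRNA backbone behind the chicken β-actin promoter, which is active in many cell types. The hairpin was directed against *Srsf10*, the gene of an RNA-binding SR protein, in *Srsf10-kd* mice and was a control hairpin in *Ctrl* mice, so the controls also carried virus. The HFD, with 60% of calories from fat, began 4 weeks after injection and lasted 12 weeks. The comparison asks which liver genes differ when SRSF10 is targeted in diet-induced obesity.

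Library totals ranged from 50456404 to 59697241 counts. Levels are given as CPM, counts scaled to each library's size. *Srsf10* itself had 34.3, 34.0, 41.0 and 36.5 CPM in the 4 *Srsf10-kd* livers against 31.6, 33.7, 35.3 and 30.9 CPM in *Ctrl*, so its RNA was not lower where the label says knockdown (log2 fold change 0.15 ± 0.10 SE, edgeR adjusted p = 0.378). Group names are those of the labels, and SRSF10 protein is not part of these data. *Srsf10-kd* 3 stood apart from its group, at 67.4 on the first principal component (44.8% of the variance) where the other 3 *Srsf10-kd* livers lay between 1.92 and 11.5. Hepatocyte markers such as *Alb* had the highest sum of the 9 marker lists in every library, at 83779 to 116974 CPM. Cholangiocyte markers were the only list of 9 whose sum did not overlap between the groups, at 46.9 to 69.2 CPM in *Srsf10-kd* and 31.8 to 39.3 CPM in *Ctrl*. All 6 of those markers had a positive log2 fold change, 4 with an unadjusted p under 0.05. Of them 0 were called by edgeR, 1 by DESeq2 and 2 by limma-voom, beside 0.071%, 5.21% and 11.7% of all genes. Over all 15491 tested genes, edgeR gave an unadjusted p under 0.05 to 1646 lower and 1736 higher in *Srsf10-kd*. Of the tested genes, 1042 were higher in every *Srsf10-kd* liver than in every *Ctrl* liver. Erythroid markers were high in *Srsf10-kd* 3 (800 CPM) and *Srsf10-kd* 4 (638 CPM) and at 292 to 381 CPM in the other 6 livers. *Srsf10-kd* 3 was also the highest liver for macrophage (393 CPM) and stellate cell and fibroblast markers (314 CPM). The part of these cells in the results below was not tested. In bulk liver, fewer cells of a type and less RNA per cell cannot be told apart.

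Pyruvate dehydrogenase sits in the mitochondrial matrix and turns pyruvate from glycolysis into acetyl-CoA, which enters the citric acid cycle or fatty acid synthesis. Phosphorylation of its α subunit by the pyruvate dehydrogenase kinases switches the complex off, and removal of the phosphates by the pyruvate dehydrogenase phosphatases switches it on again. In liver the kinases are known to hold the complex back during fasting, when pyruvate is kept for gluconeogenesis, and *Pdk4* is a classical PPARα and FOXO1 target there.

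Both phosphatase genes that stood out below lie on the plus strand of chromosome 8. *Pdp2* (ENSMUSG00000048371, GRCm38 chr8:104591451-104599026) has 1 annotated transcript of 5692 bases in 2 exons. *Pdpr* (ENSMUSG00000033624, GRCm38 chr8:111094630-111137074) has a longest transcript of 4938 bases, and its exons overlap those of *9430091E24Rik*, on the opposite strand, by 169 bases. Their promoter sequences are shown because these are the 2 members whose groups of livers did not overlap. The stretches come from the RefSeq promoter table (GRCm38.p6), end at the base before the annotated start, run 5′ to 3′ on the plus strand, and have in capitals each match of the E-box letters CACGTG, the letters CCAAT that bind the NF-Y factor, or the GC-box letters GGGCGG that bind SP factors. A match on the minus strand is in capitals as it reads on the plus strand.
Pdp2 promoter, chr8:104591222-104591450: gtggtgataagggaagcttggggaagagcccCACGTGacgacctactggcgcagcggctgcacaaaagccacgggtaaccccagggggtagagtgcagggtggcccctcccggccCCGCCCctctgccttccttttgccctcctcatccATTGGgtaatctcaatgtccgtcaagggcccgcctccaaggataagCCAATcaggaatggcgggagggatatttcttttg
Pdpr promoter, chr8:111094495-111094629: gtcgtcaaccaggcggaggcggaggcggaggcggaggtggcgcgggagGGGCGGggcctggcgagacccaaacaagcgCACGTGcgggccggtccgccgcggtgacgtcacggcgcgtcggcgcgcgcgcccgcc
The 250 bases before each RefSeq start were searched on both strands. For *Pdp2* and *Pdpr* the RefSeq start lies after the annotated start, so each window runs past the printed stretch into the annotated gene. CACGTG was found once in *Pdp2* and once in *Pdpr*, and in 6.02% of all 32851 promoters in the table. CCAAT was found 2 times in *Pdp2* and not in *Pdpr*, against 33.8% of all promoters with a match. GGGCGG was found once in *Pdp2* and 2 times in *Pdpr*, against 32.7%, and 1 of the 2 *Pdpr* matches lies past the printed stretch. TATAAA (12.4% of all promoters), AGGTCA (the nuclear receptor half-site, 14.0%) and GTAAACA (a FOXO site, 3.17%) were found in neither window. A match describes these letters only. Of the 10 genes, 9 had a promoter in the table and *Pdp1* had none.

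*Pdp2*, the phosphatase catalytic subunit known as the prominent form in liver, had 25.1, 25.4, 20.8 and 24.3 CPM in *Srsf10-kd* 1 to 4 and 38.9, 38.8, 38.9 and 39.5 CPM in *Ctrl* 1 to 4. Every *Srsf10-kd* liver lay below every *Ctrl* liver, and *Srsf10-kd* 3 was the lowest. The means were 23.9 ± 2.13 and 39.0 ± 0.314 CPM (SD, n = 4), which is 0.613 times the *Ctrl* level (log2 fold change −0.71 ± 0.09 SE). The 4 *Ctrl* livers differed less from each other than counting alone would give on average, since counting error at 1957 to 2372 counts per liver has an SD of 0.833 CPM. Leaving out 1 liver at a time kept the log2 fold change between −0.74 and −0.64, and without *Srsf10-kd* 3 it was −0.64. This is the difference that chose the gene group.

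*Pdpr*, the regulatory subunit that binds the phosphatase catalytic subunit and restrains it, had the lowest log2 fold change of the 10 genes. It had 9.40, 11.4, 1.75 and 7.57 CPM in *Srsf10-kd* 1 to 4 and 24.9, 25.4, 18.7 and 24.2 CPM in *Ctrl* 1 to 4. No *Srsf10-kd* liver reached the lowest *Ctrl* liver, *Ctrl* 3, and *Srsf10-kd* 3 was far below the rest of its group, with 90 counts where the others had 425 to 594. This is the liver with the highest erythroid, macrophage and stellate cell marker sums. The means were 7.53 ± 4.16 and 23.3 ± 3.09 CPM (SD, n = 4), so the *Srsf10-kd* mean was 0.324 times the *Ctrl* mean. The log2 fold change was −1.63 ± 0.43 SE (95% interval −2.58 to −0.68). The gene did not pass the edgeR test, with an adjusted p of 0.119 and an unadjusted p of 0.00340, and the two-sided exact permutation test gave p = 0.0286, the smallest that 4 against 4 livers allows.

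Other tools and a left-out liver changed the call on *Pdpr*. DESeq2 gave an adjusted p of 0.00578 and limma-voom with sample quality weights, which gives less weight to an outlying library, gave 0.00727 at a log2 fold change of −1.55. Once *Srsf10-kd* 3 was left out, edgeR gave −1.30 and an adjusted p of 0.0228. With any other liver left out the adjusted p stayed over 0.05, up to 0.322. Of the 75-base stretches in its exons, 0.510% also occur in another gene, so reads shared with a copy can touch only a small part of its counts.

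*Pdp1*, the phosphatase catalytic subunit that is most abundant in muscle, was rare in these livers. It had 1.24, 1.46, 0.875 and 1.03 CPM in *Srsf10-kd* and 0.833, 1.05, 1.47 and 1.19 CPM in *Ctrl*, from 45 to 76 counts per liver. The groups overlapped (log2 fold change 0.02 ± 0.23 SE, 95% interval −0.48 to 0.53, adjusted p = 0.959, edgeR). Summed markers of skeletal and heart muscle were at 0.399 to 21.6 CPM, highest in *Ctrl* 4, where *Pdp1* was not the highest.

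**Figure D1:**
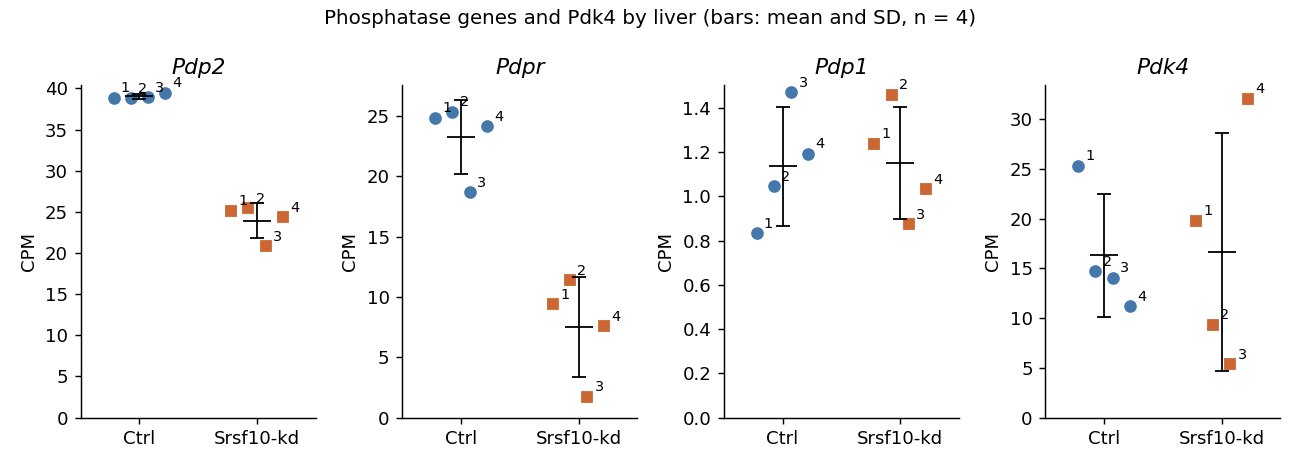
CPM of *Pdp2*, *Pdpr*, *Pdp1* and *Pdk4* in each liver (vertical axes, from 0, separate scale per gene), with the replicate number beside each point and bars for the mean and SD of 4 livers. *Pdp2* (20.8 to 25.4 against 38.8 to 39.5) and *Pdpr* (1.75 to 11.4 against 18.7 to 25.4) were lower in all *Srsf10-kd* livers, and the groups overlapped for *Pdp1* and *Pdk4*.

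Of the 4 kinase genes, 0 were called by edgeR, DESeq2 or limma-voom, beside 0.071%, 5.21% and 11.7% of all genes. Their unadjusted edgeR p was under 0.05 in 0 cases, beside 1646 lower and 1736 higher of all 15491 tested genes. With so few kinase genes, nothing is read from these counts. *Pdk2*, the widely expressed kinase and the most abundant one per kilobase of exon in these livers, had 51.1, 81.1, 50.2 and 57.7 CPM in *Srsf10-kd* and 77.3, 67.3, 50.7 and 93.1 CPM in *Ctrl*. Its range within each group was wider than the difference between the means (log2 fold change −0.27 ± 0.21 SE, adjusted p = 0.446, edgeR). *Pdk1*, a kinase known as a hypoxia-inducible factor target, ranged from 65.0 to 88.3 CPM in *Srsf10-kd* and from 67.8 to 85.8 CPM in *Ctrl* (log2 fold change −0.12 ± 0.13 SE, adjusted p = 0.585). *Pdk3* was the rarest member, with 21 to 35 counts per liver, and had 0.404 to 0.681 CPM in *Srsf10-kd* and 0.365 to 0.497 CPM in *Ctrl* (log2 fold change 0.33 ± 0.22 SE, adjusted p = 0.371). The 95% intervals ran from −0.73 to 0.20 for *Pdk2*, from −0.41 to 0.17 for *Pdk1* and from −0.16 to 0.82 for *Pdk3*, so differences within those ranges could not be told from 0 with 4 livers per group.

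*Pdk4*, the kinase induced by fasting, was the most variable of the 12 genes. It had 19.8, 9.34, 5.37 and 32.1 CPM in *Srsf10-kd* 1 to 4 and 25.3, 14.7, 14.0 and 11.2 CPM in *Ctrl* 1 to 4. The highest and the lowest liver of all 8 were both in *Srsf10-kd*, numbers 4 and 3. The means were 16.6 ± 11.9 and 16.3 ± 6.19 CPM (SD, n = 4), and the SD was 71.8% of the mean in *Srsf10-kd* and 37.9% in *Ctrl*, where for *Dlat* it was 3.58% and 5.67%. Counting error was small beside this, at 0.523 and 0.531 CPM on average in the 2 groups. The log2 fold change was 0.03 ± 0.48 SE, its 95% interval ran from −1.04 to 1.10, and the adjusted p was 0.975 (exact permutation p = 0.771). With 1 liver left out it lay between −0.50, without *Srsf10-kd* 4, and 0.32.

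The study reports PCR of *Pdk4* in primary mouse hepatocytes, not in liver tissue. Those cells received a small interfering RNA against *Srsf10* or a control, and then the PPARα agonist fenofibrate or vehicle. The primers are shown because they fix which part of the transcript that assay reads, while the liver counts cover all exons. Both match the 3484-base transcript of *Pdk4* (GRCm38 chr6:5483351-5496309, minus strand, 11 exons) and span 94 bases, from exon 2 (transcript bases 379 to 399) to exon 3 (bases 453 to 472).
Pdk4 forward: cgcttagtgaacactccttcg
Pdk4 reverse: cttctgggctcttctcatgg
A shorter *Pdk4* transcript of 573 bases holds the same stretch.

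The core subunits overlapped between the groups. *Pdha1*, which codes for the α subunit of the pyruvate decarboxylase component and carries the phosphorylated serines, had 152, 166, 140 and 139 CPM in *Srsf10-kd* and 173, 170, 182 and 133 CPM in *Ctrl* (log2 fold change −0.14 ± 0.12 SE, adjusted p = 0.495, edgeR). The lowest of all 8 values was in *Ctrl* 4. *Pdha1* shares 603 bases of exon with *Map3k15* on the opposite strand, and 10.6% of its 75-base stretches occur in another gene.

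*Pdhb*, the β subunit of the same component, had 118, 115, 176 and 133 CPM in *Srsf10-kd* and 108, 114, 126 and 100 CPM in *Ctrl*. *Srsf10-kd* 3 was the highest liver, and without it the log2 fold change went from 0.27 ± 0.15 SE (adjusted p = 0.299) to 0.12 (adjusted p = 0.594). The gene shares 6.86% of its 75-base stretches with *Gm6123*, so its counts could be split between the 2.

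*Dlat*, the acetyltransferase that forms the core of the complex and binds the kinases and phosphatases, had the smallest standard error of the group. It ranged from 44.8 to 48.2 CPM in *Srsf10-kd* and from 43.0 to 49.5 CPM in *Ctrl*. The log2 fold change of −0.00081 ± 0.09 SE had a 95% interval from −0.20 to 0.20. A change of the size seen in *Pdp2* lies outside this interval.

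Of the 2 subunits outside the chosen group, *Dld*, the dihydrolipoamide dehydrogenase shared with the other 2-oxoacid dehydrogenases, had 167 to 198 CPM in *Srsf10-kd* and 145 to 170 CPM in *Ctrl* (log2 fold change 0.16 ± 0.10 SE, adjusted p = 0.364, edgeR). *Pdhx*, which anchors DLD to the core, had 32.3 to 42.3 and 30.5 to 36.2 CPM (log2 fold change 0.07 ± 0.12 SE, adjusted p = 0.710).

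**Figure D2:**
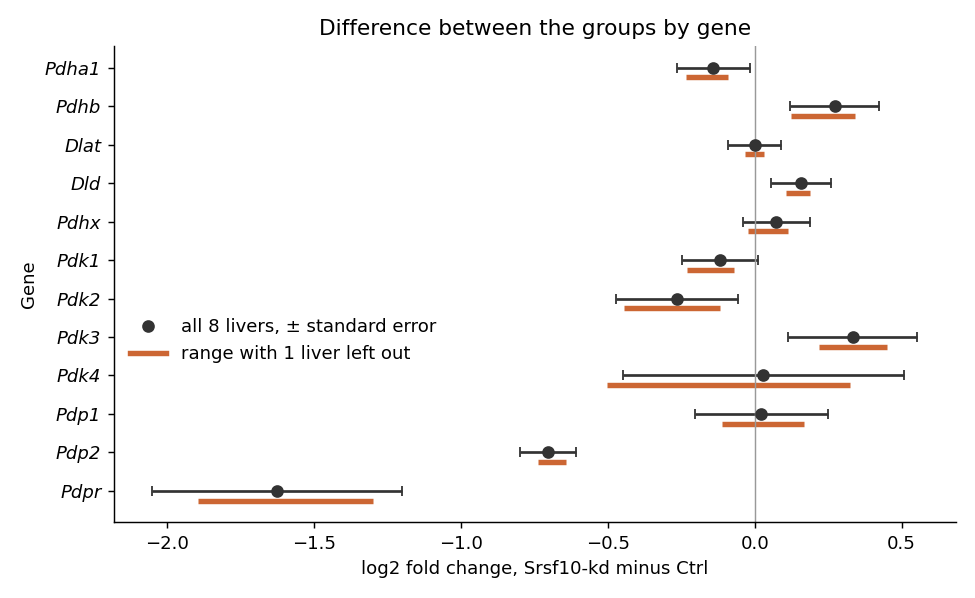
Log2 fold change, *Srsf10-kd* minus *Ctrl*, of the 12 genes (horizontal axis) from all 8 livers with its standard error (points and whiskers) and its range when 1 liver was left out (thick lines). *Pdp2* (−0.71) and *Pdpr* (−1.63) lie left of 0 throughout, and *Pdk4* spans 0, from −0.50 to 0.32.

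In the fit across all 15491 tested genes, 1 of the 10 members, *Pdp2*, had an edgeR adjusted p under 0.05, where 0.071% of all tested genes did. Since the gene group was chosen on this contrast, nothing is read from this or the following counts, each of which holds *Pdp2*. The count became 0 when *Srsf10-kd* 1, 2 or 4 or *Ctrl* 1, 2 or 4 was left out. The share of all genes called in those fits was not counted, so this 0 has nothing to be read beside. The *Pdp2* log2 fold change lay between −0.74 and −0.70 in them. DESeq2 and limma-voom each called 2 of 10, *Pdp2* and *Pdpr*, against 5.21% and 11.7% of all genes, and edgeR without *Srsf10-kd* 3 called the same 2 against 0.408%. In 2 of 10 members, again *Pdp2* and *Pdpr*, every *Srsf10-kd* liver was below every *Ctrl* liver, against 7.53% of all tested genes. Log2 fold changes were below 0 in 6 members and above 0 in 4, with a median of −0.06 where the median of all tested genes was 0.01. The two-sided exact permutation test gave p from 0.143 to 1 for the 8 members other than *Pdp2* and *Pdpr*.

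Levels were compared between genes as CPM per kilobase of annotated exons. In *Ctrl* livers *Pdha1* (44.1 ± 5.80 SD) and *Dld* (43.3 ± 2.82) were highest and overlapped, and *Pdhb* (29.0 ± 2.82) and *Pdk2* (22.8 ± 5.62) came next and overlapped with each other. *Pdk1* (10.1 ± 1.06), *Dlat* (9.45 ± 0.536) and *Pdhx* (8.53 ± 0.637) formed a run of overlapping neighbours. *Pdp2* (6.85 ± 0.0552) stood below *Pdhx* without overlap and overlapped with *Pdk4* (4.65 ± 1.76), which overlapped with *Pdpr* (4.63 ± 0.614). *Pdp1* (0.252 ± 0.0595) and *Pdk3* (0.170 ± 0.0219) were far below all others and overlapped with each other.

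In *Srsf10-kd* livers *Dld* (48.3 ± 3.70) came first, without overlap with *Pdha1* (40.0 ± 3.37). *Pdha1* and *Pdhb* (35.0 ± 7.28) overlapped there, and *Pdk2* was at 19.0 ± 4.56. At the lower end *Pdk4* (4.74 ± 3.40) stood before *Pdp2* (4.20 ± 0.374), with overlap, and *Pdpr* (1.50 ± 0.828) had no neighbour that overlapped. These are levels of RNA per length of all annotated exons, which include exons that liver may not use.

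**Figure D3:**
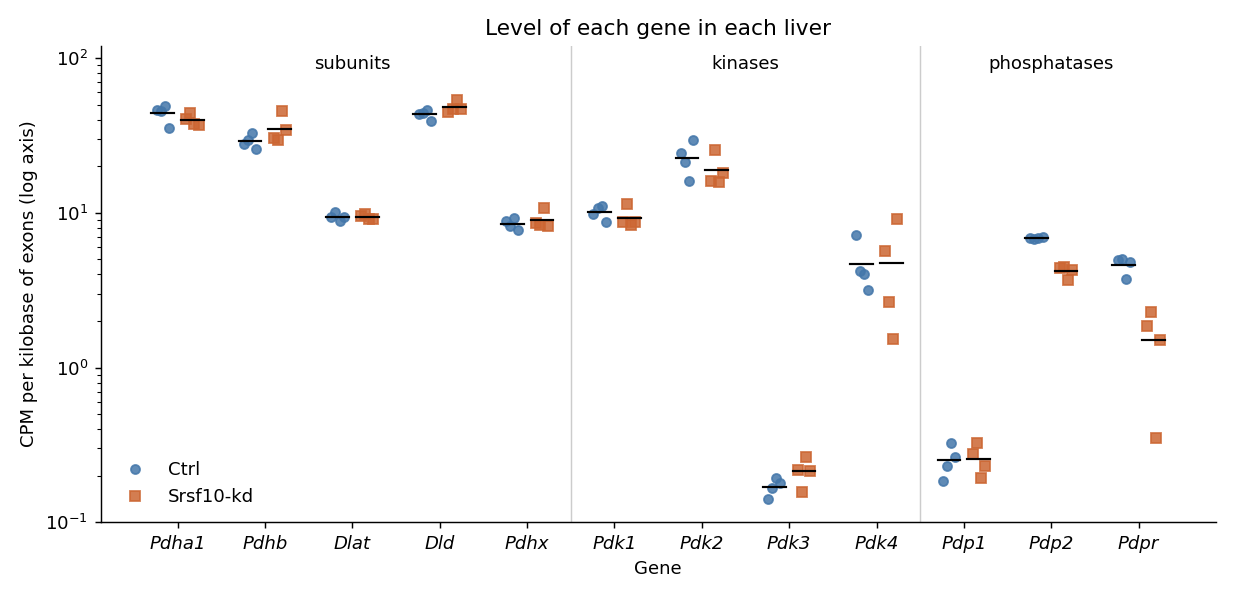
CPM per kilobase of annotated exons (vertical log axis) of the 12 genes in each of 4 *Ctrl* (circles) and 4 *Srsf10-kd* livers (squares), with lines at the group means. *Pdp2* and *Pdpr* are the genes whose groups separate, and *Pdp1* and *Pdk3* lie lowest, at group means of 0.170 to 0.256.

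The make-up of the kinase RNAs, as shares of their summed level per kilobase, overlapped between the groups for each kinase. *Pdk2* took 57.0% ± 6.76 in *Srsf10-kd* and 59.8% ± 8.13 in *Ctrl* (SD, n = 4), and *Pdk1* took 28.3% ± 3.26 and 27.4% ± 6.41. The *Pdk4* share ranged from 5.88% to 25.1% in *Srsf10-kd* and from 7.70% to 17.3% in *Ctrl*, and *Pdk3* was at most 1.02% in any liver. Between the phosphatase catalytic subunits, *Pdp2* took 94.3% ± 0.805 in *Srsf10-kd* and 96.5% ± 0.802 in *Ctrl*. The summed kinase level was 6.54 to 8.30 times the summed *Pdp1* and *Pdp2* level in *Srsf10-kd* and 4.36 to 5.93 times in *Ctrl*, without overlap. This ratio holds *Pdp2*, whose lower value was the reason for the choice, so it is no separate result. The level of *Pdpr* relative to *Pdp2* was 0.423, 0.508, 0.0952 and 0.352 in *Srsf10-kd* 1 to 4 and 0.724, 0.740, 0.544 and 0.693 in *Ctrl* 1 to 4. It was lower in each *Srsf10-kd* liver than in any *Ctrl* liver. This ratio too holds *Pdp2*, and the groups did not overlap for either gene alone, so it is no separate result.

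**Figure D4:**
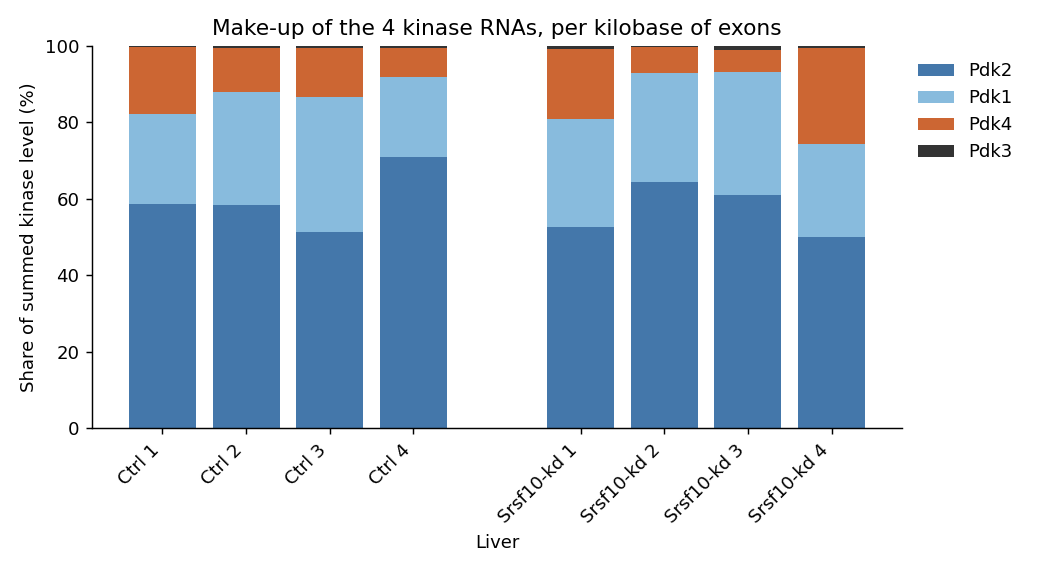
Share of each kinase gene in the summed kinase level per kilobase (vertical axis, percent) in each of the 8 livers. *Pdk2* makes up 50.1% to 70.9% in every liver, and the *Pdk4* share is largest in *Srsf10-kd* 4, at 25.1%.

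The fold changes of all genes shifted with transcript length. Tested genes were set in 10 classes of about equal size by their longest annotated transcript. In the class of shortest transcripts (median 640 bases) the median log2 fold change was 0.41, and in the class of longest transcripts (median 7913 bases) it was −0.30. *Pdp2*, at 5692 bases the longest of the 12 genes, belongs to the class of 4974 to 6448 bases, whose median was −0.20 and lower quartile −0.36. *Pdk1*, at 5185 bases, belongs to the same class and lay above its median. The class of *Pdpr*, 4211 to 4973 bases, had a median of −0.14 and a lower quartile of −0.29. The trend also differed between single livers, as the slope of log2 CPM, less each gene's mean, on log2 transcript length. This slope was lowest in *Srsf10-kd* 3, at −0.181, and was −0.024, −0.024 and −0.064 in *Srsf10-kd* 1, 2 and 4. In *Ctrl* 1 to 4 it was 0.091, 0.100, −0.030 and 0.133. With the length trend removed from the counts, the log2 fold change was −0.52 for *Pdp2* and −1.50 for *Pdpr* (adjusted p = 0.184, edgeR), and 0 of the 10 members had an adjusted p under 0.05. The share of all genes called in that fit was not counted. The part of transcript length in these differences was otherwise not tested.

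The genes around the complex were taken as fixed lists, in which 1 of 89 tested genes of 92 listed passed the edgeR test, again beside 0.071% of all genes. That gene was *Ppara*, a nuclear receptor that drives *Pdk4* and the fasting response, in the list of 8 *Pdk4* regulators. It fell to 88.4, 84.6, 77.8 and 82.3 CPM in *Srsf10-kd* from 177, 208, 168 and 234 CPM in *Ctrl* (log2 fold change −1.24 ± 0.13 SE, adjusted p = 0.0166). The lists were chosen with earlier results of these data known, the lower *Ppara* among them, so nothing is read from this count. The count was 0 when *Srsf10-kd* 1, 2 or 4 or *Ctrl* 2 was left out, and 2 without *Ctrl* 3, when *Phlpp2* also passed. The share of all genes called in those fits was not counted. DESeq2 called 2 of the listed genes and limma-voom 8, beside 5.21% and 11.7% of all genes. Over the 89 genes, 47 log2 fold changes were below 0 and 42 above, with a median of −0.02. Over all 15491 tested genes, 7537 were below 0 and 7954 above. An unadjusted edgeR p under 0.05 was found in 11 of the 89 genes with a log2 fold change below 0 and 5 above. Over all tested genes these counts were 1646 and 1736, and the counts by list below are to be read beside them. In the list of 8 *Pdk4* regulators, 6 log2 fold changes were below 0 and 2 above, with 3 unadjusted edgeR p under 0.05. DESeq2 called 1 of these regulators and limma-voom 3.

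Genes that supply or use pyruvate, such as the mitochondrial carriers, lactate dehydrogenases and pyruvate carboxylase, gave 0 edgeR and 0 DESeq2 calls in 18 tested and 1 limma-voom call, with 9 log2 fold changes below and 9 above 0 and 2 unadjusted p under 0.05. The extremes were *Pcx*, the pyruvate carboxylase of gluconeogenesis, at 567 ± 107 against 765 ± 90.6 CPM (log2 fold change −0.43, adjusted p = 0.178, and 0.0397 by limma-voom), and *Me3*, a mitochondrial malic enzyme present at 0.517 CPM or less (0.49, adjusted p = 0.382). In the lipoate synthesis list, which provides the cofactor of *Dlat*, 0 of 12 genes passed in edgeR (3 at an unadjusted p under 0.05). DESeq2 and limma-voom each called 1. A log2 fold change above 0 was found in 10 of 12, beside 7954 of all 15491 tested genes. Whether these 12 genes moved as a set was not tested. *Oxsm*, the mitochondrial ketoacyl synthase, was the lowest of these at 41.5 ± 2.71 against 52.2 ± 3.84 CPM (−0.33, adjusted p = 0.137, and 0.0333 by DESeq2 and 0.0356 by limma-voom). *Glrx5*, a glutaredoxin of iron-sulfur cluster assembly, was the highest (0.43, adjusted p = 0.254).

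Among the related 2-oxoacid dehydrogenase genes, 0 of 8 tested genes of 9 listed passed in edgeR, DESeq2 or limma-voom, and 2 had an unadjusted edgeR p under 0.05. *Ogdh*, of the 2-oxoglutarate dehydrogenase complex, was at 142 ± 31.7 against 200 ± 61.6 CPM (−0.49, adjusted p = 0.260), and *Bckdhb*, of the branched-chain complex, at 80.2 ± 6.96 against 65.7 ± 2.83 CPM (0.29, adjusted p = 0.162). The 15 citric acid cycle genes had 0 calls by the same 3 tools, 3 unadjusted p under 0.05 and a median of 0.05, and the highest was *Sdhc*, a succinate dehydrogenase membrane subunit (0.40, adjusted p = 0.199). Relatives of *Pdp1* and *Pdp2* in the PPM phosphatase family had 0 edgeR calls in 12 tested of 14 listed, 3 unadjusted p under 0.05 and a median of −0.05. DESeq2 called 0 of them and limma-voom 3, *Phlpp2*, *Ppm1l* and *Ppm1f*, the last 2 named after their values were seen. In that list *Phlpp2*, an AKT phosphatase, was lowest (−0.52, adjusted p = 0.151, and 0.0212 by limma-voom) and *Ilkap* highest (0.16, adjusted p = 0.375). Exons of *Me3* overlap those of *A230065N10Rik* by 569 bases, *Ilkap* those of *Erfe* by 357 bases and *Oxsm* those of *Ngly1* by 21 bases, so some of their counts are uncertain.

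Of 16 fasting-induced liver genes, known to move with *Pdk4* in fasted liver, 0 passed in edgeR, DESeq2 or limma-voom. An unadjusted edgeR p under 0.05 was found in 0 of them. Their median log2 fold change was −0.17, and 14 were below 0, beside 7537 of all 15491 tested genes. Since these genes are known to move together, their signs are not separate results. Whether the list moved as a set, and the part of transcript length in its signs, was not tested. *Cpt1a*, which lets long-chain fatty acids into mitochondria, was at 556 ± 197 against 877 ± 292 CPM (−0.66, adjusted p = 0.237).

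Over the 8 livers and 10967 genes of at least 1 on the mean log2 CPM scale, the genes whose log2 CPM was most like that of *Pdp2* were *Rapgef6* (Pearson r = 0.992), *Atad2b* (r = 0.991) and *Cyld* (r = 0.990). All 3 have long transcripts, of 8189, 8035 and 8022 bases, and lay lower in every *Srsf10-kd* than in every *Ctrl* liver. Since they were picked for likeness to *Pdp2*, this separation is no separate result. It was found in 7.53% of all tested genes. *Rapgef6* was at 13.3 and 19.5 CPM, *Atad2b* at 3.30 and 9.34 CPM and *Cyld* at 20.9 and 24.5 CPM in *Srsf10-kd* and *Ctrl*. Once each group's mean was taken off, r was 0.889, 0.914 and 0.835. Within the groups *Pdp2* varied mainly through *Srsf10-kd* 3, at 20.8 CPM where the rest of its group had 24.3 to 25.4. These r values therefore rest largely on that liver. For *Pdk4* they were *Hcfc2* (r = 0.918), *Slc25a30* (r = 0.905) and *Rhou* (r = 0.904), and the groups overlapped for each. The livers share the group difference and the length trend, so these values describe likeness only.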

How the data were processed

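Livers were compared by their labels, 4 *Srsf10-kd* against 4 *Ctrl*. Strand-specific libraries of poly(A) RNA were made and read for 75 bases at each end, and the authors aligned reads to GRCm38 with STAR 2.7.7a (submitters' processing notes). They deposited whole-number counts of reads for each gene, not normalized. The annotation release and strand column are not given in the sources used here, and GENCODE M21 names, exons and lengths were used. Counts were tested with edgeR 4.0.16 in R 4.3.3 (TMM, filterByExpr, quasi-likelihood test on condition, two-sided, Benjamini-Hochberg adjustment over all 15491 tested genes, threshold 0.05), which was first tested on simulated data. CPM are after TMM, and log2 CPM used a prior count of 2. Alternatives were DESeq2 1.42.0, limma 3.58.1 voom with quality weights, other scalings and filters, length and GC trends, a replicate block and leaving out each liver. Permutation tests ran over the 70 assignments of 8 livers to groups of 4. The labels number the livers and name no batch, so p-values measure the spread between these livers. At 50456404 counts or more per liver, the SD between livers exceeded counting error in both groups of every member except *Pdp2* and *Pdk3* in *Ctrl*. The members and gene lists were chosen with earlier results of these data known. Named genes were all members, *Dld*, *Pdhx*, *Srsf10*, *Ppara*, any list gene past the threshold, otherwise the lowest and highest of each list (2 of these are not reported here), and the 3 genes most like *Pdp2* and *Pdk4*.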

Additional observations from a re-analysis of the deposited data

Results flagged for a closer look

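In 2 of the 24 groups of 4 livers examined over the 12 genes, 1 liver lay far from the other 3 by Dixon's criterion, where chance alone gives about 1.2. *Pdk1* was at 88.3 CPM in *Srsf10-kd* 2, with the other 3 livers of the group between 65.0 and 68.3 CPM. *Pdhx* was at 42.3 CPM in *Srsf10-kd* 3, with the others between 32.3 and 33.9 CPM.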

How the results depend on the processing

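*Pdp2* and *Pdpr* kept a negative log2 fold change under every alternative. *Pdp2* moved from −0.71 to −0.52 with the length trend removed, and *Pdpr* passed the threshold under DESeq2, limma-voom and without *Srsf10-kd* 3, as given above. The number of members called, 1, became 2 under DESeq2 and limma-voom and 0 with library size only or with the length trend removed, and ranged from 0 to 2 with 1 liver left out. Shares of all genes called were counted only for the main fit, DESeq2, limma-voom and the fit without *Srsf10-kd* 3. The number of listed pathway genes called, 1, became 2 under DESeq2 and 8 under limma-voom, beside 5.21% and 11.7% of all genes, and these were lower in *Srsf10-kd*. It ranged from 0 to 2 with 1 liver left out. Members near 0 changed sign. *Dlat* went to 0.0027 with at least 10 counts in every liver, 0.085 with the length trend removed and 0.014 with the GC trend removed, and *Pdk1* to 0.037 with the length trend removed. With 1 liver left out *Dlat* ranged from −0.035 to 0.032, *Pdk4* from −0.50 to 0.32, *Pdp1* from −0.11 to 0.17 and *Pdhx* from −0.024, without *Srsf10-kd* 3, to 0.11. Beyond the construction of each alternative, the cause was not tested.

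Neither the labels nor the methods say that a replicate number marks a shared litter, batch or day. Deviations from the group means correlated at −0.18 for number 1 and at 0.21, 0.27 and 0.22 for numbers 2 to 4. Livers of different number were not correlated in this way, so these values cannot decide on pairing. With no pairing stated, the livers were not treated as paired. With a replicate block the counts called stayed at 1 member and 1 pathway gene, *Dlat* was at 0.00025, *Pdk4* at −0.23 and *Pdpr* at −1.84 (SE 0.34, adjusted p = 0.0663).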
